A study of Bos taurus with 15 samples.

Results

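*RAG1*, *RAG2*, *DNTT*, and *PTCRA*, genes of antigen receptor recombination, were followed through 15 cattle single-cell libraries. They were chosen by gene symbol and are 4 of the 27270 genes listed in every library, with 1 row for each symbol (*RAG1*, ENSBTAG00000040293; *RAG2*, ENSBTAG00000031309; *DNTT*, ENSBTAG00000020427; *PTCRA*, ENSBTAG00000017097). The study set digestive tissues of newborn (NB) cattle beside those of adult (AD) animals. Of the 11 NB libraries, 3 were from the stomach (abomasum, omasum, reticulum), 6 from the intestine (rectum, colon, cecum, ileum, jejunum, duodenum), and the others from salivary gland and liver, and the 4 AD libraries were from colon, cecum, jejunum, and duodenum. The 4 AD tissues were taken from 1 lactating Holstein cow and the NB tissues from 3 calves. The calf behind each NB library is not given in the sources used here. No animal was labelled with a treatment or a modified allele. NB gut tissues were exposed to EDTA and trypsin before enzymatic digestion, whereas AD tissues went directly into a lamina propria kit (duodenum and cecum) or a multi tissue kit (jejunum and colon), so stage, animal, and dissociation cannot be told apart.

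Developing lymphocytes build their receptor genes by cutting and rejoining V, D, and J segments. *RAG1* and *RAG2* encode the recombinase that makes the cuts, *DNTT* encodes terminal deoxynucleotidyl transferase, which adds nucleotides at the joints without a template, and *PTCRA* encodes the pre-T alpha chain, which pairs with a rearranged beta chain in immature T cells. The recombinase and the transferase serve both B cell and T cell precursors, the pre-T alpha chain is known from T cell precursors, and the thymus and the bone marrow are the textbook sites of this process.

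Each library held counts of unique molecular identifiers (UMIs), 1 per captured RNA molecule, for every gene and cell barcode. Totals were 17707625 to 129458578 UMIs per library, and 119798 of 172405 barcodes were kept after limits on genes, UMIs, and mitochondrial UMIs and removal of doublets. Levels are in CPM, the UMIs of a gene scaled to a common total, and shares are percentages of barcodes with at least 1 UMI of the gene. With a single library for a tissue at a given stage, groups were not tested against each other, and the 95% intervals (exact Poisson for UMIs, Clopper-Pearson for shares) cover counting error only. The 105 pairs of libraries shared 1 to 36 barcodes, at most 0.497% of the smaller library, and no barcode had a UMI of *RAG1*, *RAG2*, *DNTT*, or *PTCRA* both in NB colon and in another library. Of the 258 NB colon barcodes with such a UMI, 0 to 2 were also kept in each other library.

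NB colon carried most UMIs of the recombination genes. Its levels depended on the barcodes kept, and over all deposited barcodes they were 1.71 CPM for *RAG1*, 2.38 for *RAG2*, 17.7 for *DNTT*, and 8.12 for *PTCRA*, lower than the levels in kept barcodes that follow. *RAG1* was counted 86 times in NB colon (2.82 CPM, interval 2.26 to 3.48), 3 times in NB cecum (0.0581 CPM), 2 times in NB rectum (0.0396 CPM), and 1 time in NB liver (0.0149 CPM). The other 11 libraries had 0 *RAG1* UMIs, which allows up to 0.0321 CPM in NB omasum and up to 0.189 CPM in NB salivary gland. Of all 92 *RAG1* UMIs, 93.5% were from NB colon, and its interval did not overlap that of another library.

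*RAG2*, the partner of *RAG1* in the recombinase, had 128 UMIs in NB colon (4.20 CPM, 3.50 to 4.99). It had 5 UMIs in NB reticulum, 4 in NB cecum, 3 in NB abomasum, 3 in NB rectum, 2 in AD jejunum, 1 in NB omasum, 1 in NB duodenum, and 1 in NB ileum, each at 0.0774 CPM or less. AD duodenum, AD cecum, AD colon, NB jejunum, NB liver, and NB salivary gland had 0. NB colon held 86.5% of the 148 *RAG2* UMIs, and the 8 low libraries could not be told from each other by their intervals.

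*DNTT*, the template-free polymerase, reached 980 UMIs in NB colon (32.2 CPM, 30.2 to 34.2). NB rectum followed with 25 UMIs (0.495 CPM, 0.320 to 0.730), AD jejunum with 15 (0.292 CPM, 0.163 to 0.481), and NB cecum with 11 (0.213 CPM, 0.106 to 0.381), and these 3 intervals overlapped. NB ileum had 3 *DNTT* UMIs, NB liver 2, and AD duodenum, NB duodenum, and NB omasum 1 each, while 6 libraries had 0. NB colon held 94.3% of the 1039 *DNTT* UMIs.

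*PTCRA* was the gene with the widest spread over libraries, with a UMI in 14 of 15. It had 455 UMIs in NB colon (14.9 CPM, 13.6 to 16.4), 49 in NB ileum (1.11 CPM, 0.822 to 1.47), 31 in NB jejunum (0.413 CPM, 0.281 to 0.586), 20 in NB cecum (0.387 CPM, 0.236 to 0.598), and 16 in NB rectum (0.317 CPM, 0.181 to 0.514). In NB liver, NB duodenum, AD jejunum, AD duodenum, NB omasum, NB abomasum, and NB reticulum, *PTCRA* had 5 to 11 UMIs and 0.0730 to 0.164 CPM. AD cecum and AD colon had 1 UMI each, and NB salivary gland had 0 (up to 0.189 CPM). The NB ileum interval lay above those of the libraries after it, and NB colon held 72.3% of the 629 UMIs.

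**Figure D1:**
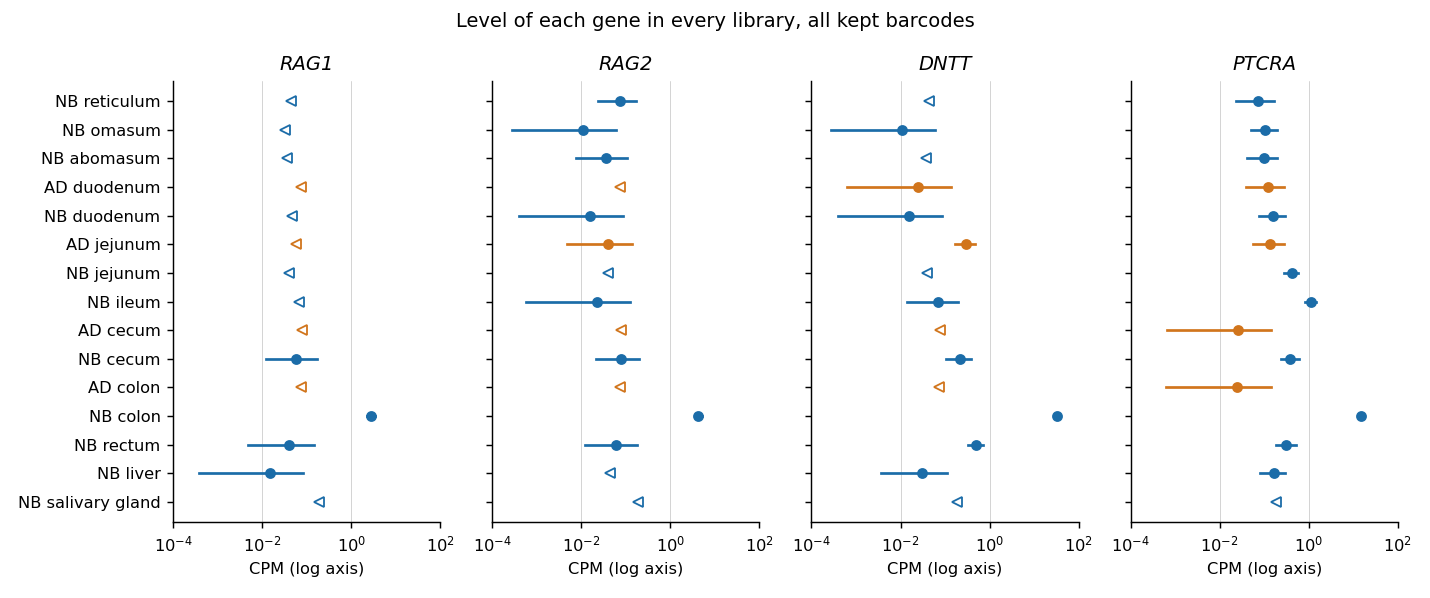
Level of *RAG1*, *RAG2*, *DNTT*, and *PTCRA* in the 15 libraries (blue, NB; orange, AD), in CPM on a log axis. Points are levels with exact Poisson 95% intervals, and open triangles mark the limit of 3 counts in libraries with 0 UMIs. NB colon stands apart at 2.82, 4.20, 32.2, and 14.9 CPM.

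To place these UMIs in lymphocytes, barcodes were divided by *CD3E*, a subunit of the T cell receptor complex, and by *MS4A1* or *CD79A*, which mark B cells. NB colon had 810 *CD3E* barcodes among 4428 kept barcodes. Of these 810, 44 (5.43%, 3.97 to 7.22) had *RAG1*, 59 (7.28%, 5.59 to 9.30) *RAG2*, 133 (16.4%, 13.9 to 19.2) *DNTT*, and 79 (9.75%, 7.80 to 12.0) *PTCRA*. At least 1 of the recombination genes was seen in 157 *CD3E* barcodes, a share of 19.4%. The *CD3E* barcodes were 18.3% of the kept barcodes of NB colon and carried 83.7% of its *RAG1* UMIs, 81.2% of its *RAG2* UMIs, 88.9% of its *DNTT* UMIs, and 89.5% of its *PTCRA* UMIs.

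Free RNA can give UMIs in cells that do not express a gene. Barcodes with *EPCAM*, *COL1A2*, or *PECAM1* (epithelial, stromal, and endothelial markers) and with no *PTPRC*, *CD3E*, *MS4A1*, or *CD79A* served as the background. Of 1094 such barcodes in NB colon, 1 (0.0914%) had *RAG1*, 1 (0.0914%) *RAG2*, 5 (0.457%) *DNTT*, and 7 (0.640%) *PTCRA*, although their median depth of 7875 UMIs was above the 4982 of the *CD3E* barcodes. With every barcode thinned to 1000 UMIs, which left out 6 *CD3E* and 12 background barcodes, the *CD3E* shares were 1.99% for *RAG1*, 2.86% for *RAG2*, 9.08% for *DNTT*, and 5.35% for *PTCRA*, against 0, 0, 0.0924%, and 0.277% in the background. For all 4 genes the *CD3E* interval lay above the background interval, as counted and after thinning.

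AD colon had 7431 *CD3E* barcodes, with a median of 3872 UMIs, and 0 of them held a UMI of *RAG1*, *RAG2*, *DNTT*, or *PTCRA*, which allows a share of up to 0.0404% for each gene. Over the 4 AD libraries, with doublets removed, 0 of 25351 *CD3E* barcodes had *RAG1*, *RAG2*, or *DNTT*, allowing up to 0.0118%. Of the same barcodes, 2 had a single *PTCRA* UMI. The 10 NB libraries other than colon had 9070 *CD3E* barcodes, of which 1 had *RAG1*, 1 *RAG2*, 5 *DNTT*, and 6 *PTCRA*. One NB cecum *CD3E* barcode of 1599 UMIs held all 4 genes with 1 to 2 UMIs each, and one NB rectum *CD3E* barcode of 3789 UMIs held 9 *DNTT* and 4 *PTCRA* UMIs. None of the 141 *CD3E* barcodes of NB ileum had any of the 4 genes, but so few barcodes allow a share of up to 2.13%.

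The duodenum depended on the doublet step. After doublets were removed, 0 of 91 *CD3E* barcodes of NB duodenum had a recombination gene (limit 3.30%). With doublets left in, 2 of 108 had *RAG1*, 3 *RAG2*, 4 (3.70%, 1.02 to 9.21) *DNTT*, and 3 *PTCRA*. In AD duodenum, 1 *CD3E* barcode removed as a doublet held all 4 genes, with 8 *DNTT*, 2 *PTCRA*, 1 *RAG1*, and 1 *RAG2* UMIs. With doublets left in, 1 of 7395 *CD3E* barcodes there had *DNTT*, *RAG1*, and *RAG2*, and 2 had *PTCRA*. In NB colon the doublet step removed 0 barcodes with *RAG1*, *DNTT*, or *PTCRA* and 1 with *RAG2*.

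**Figure D2:**
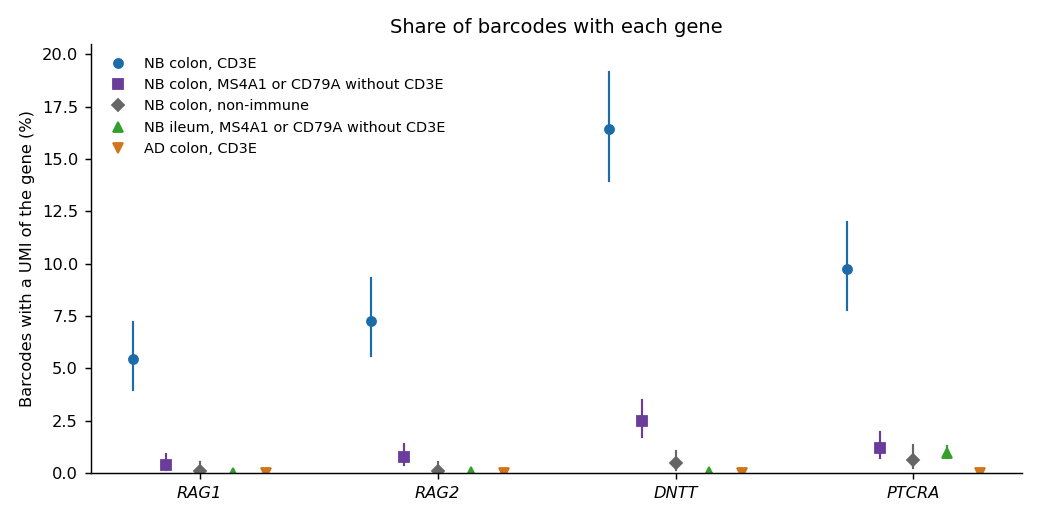
Percentage of barcodes with at least 1 UMI of each gene, with Clopper-Pearson 95% intervals, in *CD3E* barcodes of NB and AD colon, in *MS4A1* or *CD79A* barcodes without *CD3E* of NB colon and NB ileum, and in non-immune barcodes of NB colon. The NB colon *CD3E* shares of 5.43% to 16.4% lie above every other class shown.

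The recombination genes met in the same barcodes. Among the 810 *CD3E* barcodes of NB colon, 653 had none of them, 64 had 1, 41 had 2, 39 had 3, and 13 had all 4. *DNTT* was present in 69 of the 79 barcodes with *PTCRA* (87.3%), whereas it was present in 16.4% of all *CD3E* barcodes. *RAG1* and *RAG2* were seen together in 19 barcodes, *RAG2* and *DNTT* in 50, *RAG1* and *DNTT* in 34, *RAG2* and *PTCRA* in 38, and *RAG1* and *PTCRA* in 26. A deep barcode is likelier to show any pair, and these counts are descriptions of 1 library. Of all combinations in NB colon, *DNTT* alone was the most frequent with 90 barcodes, of which 44 had *CD3E*.

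UMIs per barcode differed in spread. In *CD3E* barcodes with the gene, *DNTT* had a median of 5 UMIs and a highest value of 30, and 68 of the 133 barcodes had 5 or more. *PTCRA* had a median of 3 UMIs, a highest value of 26, and 34 of 79 barcodes with 5 or more. Both recombinase genes had a median of 1 UMI, with highest values of 8 for *RAG1* and 5 for *RAG2*. At this depth a barcode without a *RAG1* or *RAG2* UMI cannot be read as lacking the gene.

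**Figure D3:**
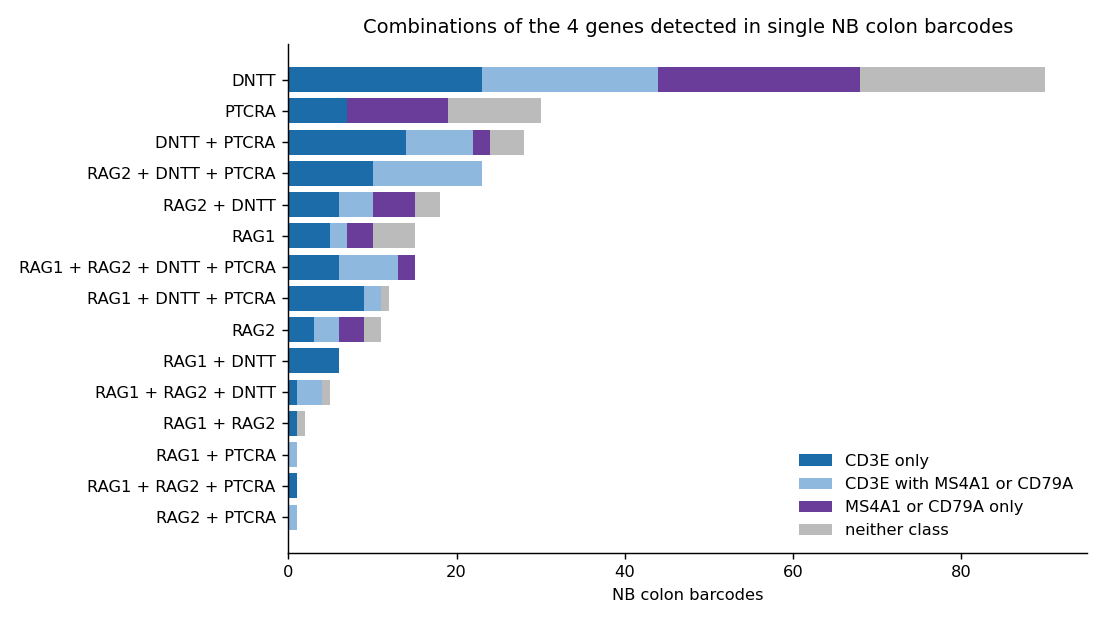
Numbers of NB colon barcodes with each combination of the 4 genes, with bars divided by the presence of *CD3E* and of *MS4A1* or *CD79A*. *DNTT* alone was seen in 90 barcodes, and all 4 genes together in 15, of which 13 had *CD3E*.

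*CD79A*, used here for B cells, was also seen in 32.8% of the *CD3E* barcodes of NB colon (*MS4A1*, 5.19%), so the classes overlap. The 537 *CD3E* barcodes with neither B marker included 92 with a recombination gene (17.1%), and the 273 with a B marker included 65 (23.8%). The 2 B markers differed, with 64 of 266 for *CD79A* (24.1%) and 4 of 42 for *MS4A1* (9.52%). Among the 537, 29 had *RAG1*, 28 *RAG2*, 75 *DNTT*, and 47 *PTCRA*. The part of doublets or free RNA in the overlap was not tested.

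The other genes of the 157 *CD3E* barcodes with a recombination gene were set beside those of the 653 without. Of 7617 genes with at least 10 CPM in either set, 9.22% were higher and 5.62% lower past 2-fold (with 10 CPM added to both), and the recombination genes are among them by the choice of barcodes. Markers of T cell progenitors and thymocytes outnumbered that background, with 13 of 24 past 2-fold higher and 0 lower, and their median log2 ratio was 1.31 against 0.19 over all genes. *CD1B*, a lipid-presenting molecule of the list, stood at 381 against 15.8 CPM. Its relative *CD1E*, known from thymocytes and dendritic cells and outside the list, was at 286 against 4.83 CPM. *ARPP21* was at 430 against 14.8 CPM, the Notch receptor *NOTCH3* at 99.4 against 4.07, the Notch target *HES1* at 627 against 104, and *CCR9*, a receptor for the thymic and gut chemokine CCL25, at 149 against 32.0. The T cell transcription factors *TCF7* (694 against 245 CPM) and *LEF1* (108 against 33.3 CPM) were higher as well. Other members of the list stayed within 2-fold, among them *CD4* (log2 ratio 0.75), *GATA3* (0.82), *CD8A* (-0.33), and *ZAP70* (-0.60).

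Genes of dividing cells were higher without exception among the 8 listed, with a median log2 ratio of 2.97. *MKI67* was at 567 against 52.4 CPM, *TOP2A* at 642 against 68.7, and *UBE2C* at 507 against 39.2. Of 13 listed genes that act with the recombinase in cutting or end joining, 3 were higher. Over all genes 9.22% were higher and 5.62% lower. *DCLRE1C*, which encodes the nuclease Artemis that opens hairpin ends, was at 31.8 against 6.87 CPM. The others were *HMGB1* (5057 against 856 CPM) and *HMGB2* (1844 against 354 CPM), DNA-bending cofactors of the cutting step. *DCLRE1C* was thus the only end joining gene called higher. The Ku genes *XRCC5* and *XRCC6*, the ligase gene *LIG4*, and its partner *XRCC4* had log2 ratios of 0.36, 0.64, 0.27, and 0.22. Among 13 regulators of the recombinase locus, 7 were higher, among them *MYB* (261 against 31.8 CPM), *TCF12* (100 against 13.2 CPM), *TCF3*, *SATB1*, and *RUNX1*, and 2 were lower, *FOXO1* (6.96 against 37.9 CPM) and *ID2* (211 against 495 CPM).

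Genes of mature T cells were on the other side, with 0 of 12 higher and 8 lower and a median log2 ratio of -1.33. The shares over all genes were 9.22% higher and 5.62% lower, with a median of 0.19. The homing receptor *CCR7* was at 5.97 against 94.9 CPM, the chemokine *CCL5* at 64.6 against 431, *NKG7* of cytotoxic granules at 80.5 against 339, *IFNG* at 0.994 against 34.3, and the IL-2 receptor chain *IL2RA* at 0 against 25.9. *CD3E* itself stood at 963 against 1246 CPM and *LCK*, a kinase of receptor signalling, at 322 against 266. Of the other T lineage markers, *CD2* was lower past 2-fold (30.8 against 87.0 CPM). *CD3D* (145 against 243 CPM), *CD5* (46.7 against 56.7 CPM), and *CD3G* (22.9 against 23.1 CPM) stayed within it. The 6 T lineage markers summed to 1531 against 1922 CPM. *PTPRC*, the pan-leukocyte marker CD45, was seen in 43.9% (36.1 to 52.1) of barcodes with a recombination gene and in 77.3% (73.9 to 80.5) of those without.

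Markers of other cells moved with the comparison. The 6 epithelial markers summed to 121 CPM in barcodes with a recombination gene and 394 CPM in those without, the 6 stromal markers to 15.9 and 252 CPM, the 6 plasma cell markers to 55.7 and 605 CPM, the 6 B lineage markers to 187 and 262 CPM, and the 6 myeloid markers to 127 and 187 CPM. Every listed marker of these types had a UMI in both sets except *TNFRSF17*, which had 0 in the first. Their part in the result was not tested. With barcodes of both classes left out, 15 of 24 progenitor markers were higher (background 11.5%), 8 of 8 genes of dividing cells were higher, and 9 of 12 mature T cell genes were lower (background 6.35%). With only the 121 barcodes that had 2 or more UMIs of the 4 genes, 13 of 24 progenitor markers were higher and 1 lower (background 10.9% and 7.71%).

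**Figure D4:**
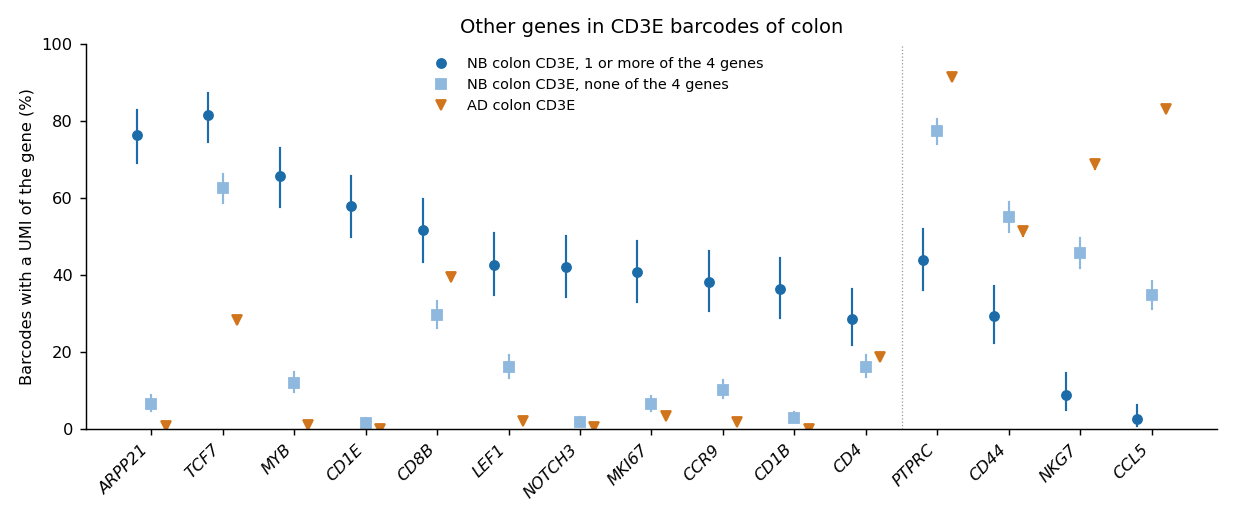
Percentage of *CD3E* barcodes with a UMI of other genes, with Clopper-Pearson 95% intervals, in 157 NB colon barcodes with a recombination gene, 653 NB colon barcodes without, and 7431 AD colon barcodes. Left of the dotted line the barcodes with a recombination gene are the highest set, and right of it they are the lowest. Only some listed genes are shown, and they and the place of the line were chosen, so this order is part of the choice. *CD8A*, a progenitor marker not shown, was seen in 27.4% of NB colon barcodes with a recombination gene and 31.2% of those without.

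*CD4* and *CD8B*, the coreceptor genes that immature T cells are known to express together, were both seen in 39 of the 157 barcodes with a recombination gene (24.8%, 18.3 to 32.4). They were both seen in 12 of the 653 without (1.84%, 0.953 to 3.19) and in 70 of 7431 in AD colon (0.942%, 0.735 to 1.19). Median depths were 4946, 4985, and 3872 UMIs. After thinning to 1000 UMIs the shares were 11.8%, 0.307%, and 0.0944%. *MKI67* or *TOP2A*, genes of dividing cells, were seen in 44.6%, 9.80%, and 3.77% of the same sets, and in 32.0%, 2.61%, and 1.81% after thinning.

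The coreceptors were also counted for each of the 4 genes. Of 44 *CD3E* barcodes with *RAG1*, 19 (43.2%, 28.3 to 59.0) had *CD4* and *CD8B*, a share that was 14.6% (5.57 to 29.2) after thinning. The shares were 32.2% (20.6 to 45.6) with *RAG2*, 23.3% (16.4 to 31.4) with *DNTT*, and 22.8% (14.1 to 33.6) with *PTCRA*, and the 4 intervals overlapped. Of 34 barcodes with *RAG1* or *RAG2* and no *PTCRA*, 15 (44.1%, 27.2 to 62.1) had both coreceptors, against 4 of 29 (13.8%, 3.89 to 31.7) with *PTCRA* and neither recombinase gene and 6 of 44 (13.6%, 5.17 to 27.4) with *DNTT* alone. Thinning gave 29.0%, 3.45%, and 9.30% for these 3 sets, and the intervals of all 3 overlapped, both as counted and after thinning. In barcodes with *PTCRA* and neither recombinase gene, *CD8B* without *CD4* was the most frequent state (15 of 29), and in those with *DNTT* alone it was neither coreceptor (32 of 44).

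Outside *CD3E* barcodes, NB colon held 72 *DNTT* and 15 *RAG2* UMIs in B-marker barcodes and 37 and 9 in barcodes of neither class. The 1319 barcodes with *MS4A1* or *CD79A* and no *CD3E* included 5 (0.379%) with *RAG1*, 10 (0.758%) with *RAG2*, 33 (2.50%, 1.73 to 3.50) with *DNTT*, and 16 (1.21%, 0.695 to 1.96) with *PTCRA*. Their median depth was 5105 UMIs, and for *RAG1*, *RAG2*, and *PTCRA* the interval overlapped that of the background barcodes. *VPREB1*, which encodes part of the surrogate light chain of B cell precursors and has 2 rows in the gene list that were summed, marked a small subset. The 61 of these barcodes with *VPREB1* held 13 of the 15 *RAG2* UMIs and 36 of the 72 *DNTT* UMIs, but 0 *RAG1* UMIs.

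In NB colon 15 barcodes had 10 or more *VPREB1* UMIs, and together they held 545 of the 622 *VPREB1* UMIs of the library. *DNTT* was seen in 9 of the 15 (36 UMIs) and *RAG2* in 8 (13 UMIs), while *RAG1*, *PTCRA*, and *CD3E* were seen in 0. *CD79B*, the partner of *CD79A* in the B cell receptor, was seen in 14 of the 15. By contrast, the 48 NB colon barcodes with 1 or 2 *VPREB1* UMIs held 0 *RAG2* and 0 *DNTT* UMIs, but 3 *PTCRA* UMIs in 2 barcodes.

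Barcodes of this kind were found in 4 other libraries. NB rectum had 6 with 10 or more *VPREB1* UMIs (9 *DNTT* UMIs in 2 of them, and 1 UMI each of *RAG1* and *RAG2*), NB cecum had 2 (1 *RAG2* UMI), NB liver had 1 (0 UMIs of the recombination genes), and AD jejunum had 1. The AD jejunum barcode held 77 *VPREB1*, 14 *DNTT*, and 2 *RAG2* UMIs, which were all *RAG2* UMIs and 14 of the 15 *DNTT* UMIs of that library. None of these 10 barcodes had *CD3E* or *PTCRA*. *VPREB1* at 1 to 3 UMIs was seen in 153 AD duodenum, 81 AD cecum, and 63 AD colon barcodes. The kept barcodes of these libraries had 0 *RAG1* and *RAG2* UMIs.

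*CD3E* and *VPREB1* separated the barcodes with 2 or more UMIs of the 4 genes. In NB colon 151 barcodes had that many, of which 121 had *CD3E*, 11 had 10 or more *VPREB1* UMIs, and 0 had *CD3E* together with a *VPREB1* UMI. The 121 held 852 *DNTT* and 402 *PTCRA* UMIs, and the 11 held 36 *DNTT* and 0 *PTCRA* UMIs. A further 17 had neither gene, with a median of 1935 UMIs.

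**Figure D5:**
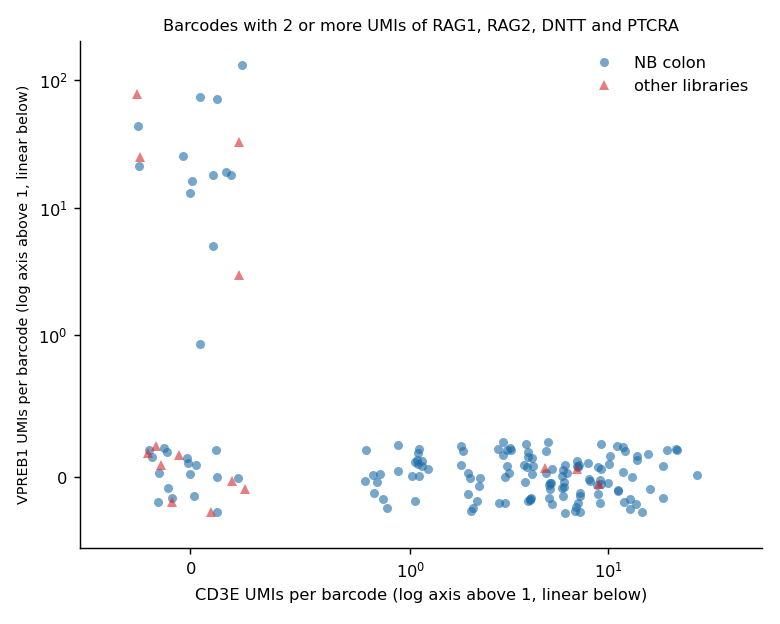
*VPREB1* against *CD3E* UMIs in the 166 barcodes with 2 or more UMIs of *RAG1*, *RAG2*, *DNTT*, and *PTCRA* (blue, 151 of NB colon; red, 15 of other libraries), on axes that are linear below 1 and logarithmic above, with small random shifts so that points do not hide each other. Barcodes with *CD3E* had 0 *VPREB1* UMIs, and those with 10 or more *VPREB1* UMIs had 0 *CD3E* UMIs.

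NB ileum, with 4638 *MS4A1* or *CD79A* barcodes without *CD3E*, had the largest B class of the 15 libraries and almost no *RAG1*, *RAG2*, or *DNTT*. *RAG1* was seen in 0 of the 4638 (up to 0.0647%), *RAG2* in 1, and *DNTT* in 2. *PTCRA* was seen in 45 (0.970%, 0.709 to 1.30), with at most 2 UMIs per barcode, against 1 of 1175 background barcodes (0.0851%, 0.00215 to 0.473), at median depths of 4400.5 and 5809 UMIs. After thinning it was seen in 5 of 4563 and 0 of 1170, a level too low to read. The 45 barcodes were deeper than the other 4593, with a median of 7918 against 4380 UMIs.

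B-marker barcodes of NB ileum were also set beside those of the other NB libraries together, 4704 against 5931 barcodes, *CD3E* allowed. Past 2-fold, 5.4% of 7487 genes were higher and 6.66% lower. Germinal centre genes were higher in 7 of 10, led by *RGS13* (275 against 30.0 CPM), *MEF2B* (399 against 64.2 CPM), and *S1PR2* (log2 ratio 1.73). *DNTT* stood at 0.104 CPM against 13.5 CPM in the other libraries, but 528 of their 555 *DNTT* UMIs were from NB colon, 456 of them in barcodes with *CD3E*, and without NB colon the level was 0.905 CPM. *PTCRA* stood at 1.63 against 5.36 CPM, and without NB colon the direction turned, with 0.302 CPM (9 UMIs) in the other libraries. *RAG1* (0 against 0.780 CPM) and *RAG2* (0.0346 against 1.80 CPM) were at 0.168 and 0.134 CPM in the other libraries without NB colon. In the same comparison *CD3E* had a log2 ratio of -4.37, and 5 of 6 T lineage markers were lower. Of the B-marker barcodes, 66 of 4704 in NB ileum also had *CD3E*. In the largest other B classes these were 1362 of 1967 (NB liver), 273 of 1592 (NB colon), and 695 of 1256 (NB salivary gland). The gene counts were not repeated without such barcodes, so the difference in germinal centre genes is not shown for B cells alone. With NB colon left out of the other libraries, 628 genes were higher in place of 404.

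*CD3E* barcodes of NB colon and AD colon were compared as whole classes, 810 against 7431. Of 7702 genes, 6.69% were higher in NB colon and 7.79% lower. *DNTT* stood at 176 CPM (165 to 189) against 0 (up to 0.0916), *PTCRA* at 82.4 against 0, *RAG2* at 21.1 against 0, and *RAG1* at 14.6 against 0. *CD1B* was at 90.1 against 0 CPM, *ARPP21* at 99.2 against 2.17, *HES1* at 210 against 7.33, and *SOX4*, a factor of progenitor cells, at 147 against 8.73. *SOX4* was not particular to *CD3E* barcodes. It stood at 173 CPM in NB colon barcodes without *CD3E*, a B marker, or a recombination gene. Of 15 mature T cell genes tested, 6 were lower in NB colon and 2 (*CCR7* and *S1PR1*) higher. Among the lower were *GZMA* at 3.65 against 614 CPM, *CCL5* at 356 against 8830, and *PRF1* at 24.5 against 199, while *NKG7*, at 286 against 564 CPM, stayed within 2-fold. *GNLY*, a cytotoxic granule gene outside the list, was at 13.4 against 1268 CPM. The T lineage markers themselves were lower in 5 of 6, with *CD3E* at 1188 against 2665 CPM.

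With *RAG1*, *RAG2*, *DNTT*, and *PTCRA* left out of the list, 10 of 24 progenitor and thymocyte markers were higher in NB colon and 3 lower. With the whole list and without the 157 barcodes with a recombination gene, 7 of 22 were higher and 2 lower (background 4.88% and 7.71%). The genes highest in NB colon included *PLA2G2A*, *PI3*, *OLFM4*, and *REG4*, which epithelial cells of the gut are known to express. The 6 epithelial markers, each with UMIs in both classes, summed to 339 CPM in NB colon and 158 CPM in AD colon *CD3E* barcodes. The 6 B lineage markers summed to 247 and 59.3 CPM, the 6 plasma cell markers to 493 and 3691 CPM, the 6 myeloid markers to 175 and 289 CPM, and the 6 stromal markers to 204 and 178 CPM. The 5 endothelial markers summed to 41.1 and 15.1 CPM and the 6 erythroid markers to 12.4 and 0.733 CPM. Their part in the result was not tested.

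The level of every gene across the 15 libraries was compared with that of the 4 genes by Pearson's r of log2(CPM + 1), as a description, since 1 library sets the value. *RAG1* was most like *RAG2* (0.999), *ALAS2* (0.996), *DNTT* (0.994), *SLIT1* (0.994), and *CD1B5* (0.986), of 17294 genes with at least 50 UMIs. *RAG2* and *DNTT* had the same companions. *PTCRA* was most like *VWC2* (0.981), *ALAS2* (0.974), *GPHA2* (0.967), *RAG1* (0.965), and *RAG2* (0.964). Without NB colon, *RAG1* had an r of 0.615 with *RAG2* and 0.672 with *DNTT*, but -0.000781 with *ALAS2*. Without NB colon, *PTCRA* had an r of 0.704 with *ALAS2*, 0.253 with *RAG1*, and 0.204 with *RAG2*. *ALAS2*, an enzyme of heme synthesis in red cell precursors, had 56 UMIs in all, 78.6% of them in NB colon. Outside NB colon, *RAG1* and *RAG2* reached at most 0.0581 and 0.0774 CPM. The values of r without NB colon therefore rest on few UMIs, and no contrast between them can be read.

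UMIs of the 4 genes were also found outside the lymphocyte classes. NB reticulum and NB abomasum each had 1 barcode with 2 *RAG2* UMIs and no *CD3E* or B marker. In NB jejunum, *PTCRA* was seen in 31 barcodes with 1 UMI each, of which 0 had *CD3E* or a B marker, and 18 were among the 7075 background barcodes (0.254%, 0.151 to 0.402). In NB colon, 2299 barcodes had neither *CD3E* nor a B marker, and 50 of them (2.17%) had a recombination gene. *DNTT* alone was seen in 22 of the 50, *PTCRA* alone in 11, *RAG1* alone in 5, *DNTT* and *PTCRA* in 4, and *RAG2* and *DNTT* in 3. These 50 were shallow, with a median of 1876.5 UMIs, and 20.0% of them had *CD8B* against 0.489% of the other 2249. *RAG2* lies in RefSeq (assembly ARS-UCD2.0) between *RAG1* and *IFTAP* and overlaps *IFTAP*, which the files name *C15H11orf74*. That gene had 3.30 to 19.7 CPM in every library. In NB colon, 8 of the 76 barcodes with *RAG2* had it, beside 358 of all 4428 kept barcodes. In NB reticulum, 2 of the 4 with *RAG2* had it, beside 705 of all 6996. In the other 7 libraries with *RAG2* none had it, but each had only 1 to 4 barcodes with *RAG2*. How the counting divided UMIs between the overlapping genes was not tested.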

How the data were processed

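UMI counts of 15 Chromium 3' v3 libraries were used. The authors counted UMIs per gene and barcode with Cell Ranger 3.1.0 on ARS-UCD1.2 and deposited whole-number counts without normalization. The annotation release is not given in the sources used here. Totals were 17707625 to 129458578 UMIs per library. Barcodes were kept within the study's limits of 500 to 4000 genes, less than 50000 UMIs, and a mitochondrial share (13 genes) below 40%. Scrublet scores (scanpy 1.11.5, 2 simulated doublets per barcode, 30 components) replaced DoubletFinder, and the highest were removed at 0.8% per 1000 barcodes. The manual removal of clusters in the study was not repeated. A barcode of a class had 1 or more UMIs of its marker. Comparisons used summed UMIs, log2 ratios of CPM with 10 CPM added, genes of at least 10 CPM in either set, and a 2-fold limit. Intervals are at 95%, and a count of 0 is given with a limit of 3 counts. With 1 library per group, no replicate error exists and no test was run. Genes named were the 4 genes, those of marker lists, the 15 with the largest ratio each way per comparison, and the 5 most alike in level. The 4 genes, the lists, and the comparisons were chosen with earlier results of these data known; the limit of 10 *VPREB1* UMIs and the division by coreceptor were chosen after values were seen. *VPREB2*, *IGLL1*, *H2AX*, and *UNG* matched no symbol. On simulated counts for the 3 comparisons (7170, 7119, and 6997 genes tested), 200 of 200 genes changed 4-fold were recovered in each, and 3, 0, and 0 unchanged genes were called. These counts were Poisson draws from a pooled profile, without variation between barcodes or libraries, and the changed genes were well above 10 CPM. They check the calculation and do not give the error rate of calls in the data. Alternatives covered the filters, doublets, marker limit, class overlap, thinning, pseudocount, and expression limit. No sequences were printed. Some listed genes are not reported here. Python 3.11.15, NumPy 2.4.6, SciPy 1.17.1, pandas 2.3.3, and matplotlib 3.10.9 were used.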

Additional observations from a re-analysis of the deposited data

How the results depend on the processing

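No paired analysis was possible because each group had 1 library. Of 120 settings tried for the main values, 78 stayed within the counting interval or within 1.5 times the main count, and 42 moved. These values are levels, shares, and counts, which have no sign, so a reversal could not be recorded. In B-marker barcodes, *PTCRA* of NB ileum went from below to above the other NB libraries once NB colon was left out. In NB colon, all deposited barcodes gave 1.71, 2.38, 17.7, and 8.12 CPM for *RAG1*, *RAG2*, *DNTT*, and *PTCRA*, and no upper limit on genes or UMIs gave 1.71, 2.50, 19.7, and 8.88 CPM. A mitochondrial limit of 10% gave *DNTT* at 35.4 CPM. The B class with *CD3E* allowed had shares of 1.26%, 2.58%, 5.72%, and 3.02%. With *CD3E* barcodes removed from it, the shares were 0.379%, 0.758%, 2.50%, and 1.21%, and with B barcodes removed from the *CD3E* class *RAG2* was at 5.21%. With 2 UMIs of the marker and *CD3E* allowed, the B share of *DNTT* fell from 5.72% to 3.78%. Thinned to 1000 UMIs, *CD3E* shares were 1.99%, 2.86%, 9.08%, and 5.35%, and B shares, with *CD3E* allowed, 0.317%, 1.02%, 2.54%, and 1.52%. Counts of genes past 2-fold followed the pseudocount. With 1 CPM they were 1225 higher and 787 lower (barcodes with a recombination gene), 965 and 1108 (NB against AD colon), and 708 and 854 (NB ileum), and with 50 CPM 229 and 110, 137 and 169, and 118 and 162. The main counts were 702 and 428, 515 and 600, and 404 and 499. A minimum of 50 CPM gave 435 and 205, 276 higher, and 286 lower, and thinning gave 1237 and 879. NB ileum against NB libraries without colon, chosen after seeing the data, gave 628 higher. Depth limits most the recombinase genes, with a median of 1 UMI per barcode; whether NB colon differs between calves cannot be known from 1 library.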

Other observations

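Some barcodes of AD libraries also carried recombination genes. Besides the AD jejunum barcode with 77 *VPREB1* and 14 *DNTT* UMIs, AD duodenum held 9 *DNTT*, 2 *RAG1*, and 1 *RAG2* UMIs among all deposited barcodes, of which 1, 0, and 0 remained after filtering. A single *CD3E* barcode removed as a doublet held 8 of these *DNTT* UMIs and 1 UMI each of *RAG1* and *RAG2*. NB reticulum held 11 *RAG2* UMIs among all deposited barcodes and 5 after filtering, with 0 *CD3E* barcodes among those with the gene. In NB colon, 246 deposited barcodes had *DNTT*, of which 197 were kept and 0 were removed as doublets.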
